A study of Mus musculus with 6 samples.

Results

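The dual-specificity MAP kinase phosphatases (MKPs) were examined in C2C12 cells, a mouse myoblast line that fuses into multinucleated myotubes once serum is reduced. The 10 genes, Dusp1, Dusp2, Dusp4, Dusp5, Dusp6, Dusp7, Dusp8, Dusp9, Dusp10 and Dusp16, were selected by family membership from the 43074 gene symbols of the count table, with earlier results of these counts in view. All 10 had enough counts to be tested, among 17433 tested genes. Because the same 3 comparisons were in view when the genes were proposed, their values are given as a description, without p-values.

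The cells were wild type in all 3 groups, and each group had 2 libraries. Day 0 cells were untreated, and the labels describe growth in medium with fetal bovine serum. Day 4 cells were in differentiation medium with horse serum, containing either DMSO or 4-phenylbutyric acid (4-PBA) at 1 mM. 4-PBA is an aromatic short-chain fatty acid that inhibits histone deacetylases and acts as a chemical chaperone. The day 0 and day 4 DMSO groups therefore differ in time, serum and solvent, which cannot be told apart. C2C12 is a single immortalised line, and it is not stated whether the 2 replicates of a group came from different cultures, so the tests measure only the spread between these libraries, which may be technical. Total counts were 47908926 to 74697397 per library, and all libraries carried the same batch number. Myogenic markers of the set Myf5, Myod1, Des, Myog, Mymk, Myh3 and Ckm summed to 1066 and 1074 CPM (counts scaled to a common library size) at day 0 and to between 4914 and 5228 CPM in the 4 day 4 libraries. Des and Myh3 held most of the DMSO sum, averaging 2212 and 2017 CPM. Of the 7, Myf5 alone was lower with DMSO than at day 0, averaging 22.9 against 50.2 CPM. Myod1 differed little, at 113.7 against 97.4 CPM. Of 9 markers of other cell types, 2 reached 1 CPM, among them the neuronal tubulin Tubb3, and 7 did not, with the leukocyte marker Ptprc and the epithelial marker Epcam at or near 0; the 9 summed to between 129.7 and 174.5 CPM. In these bulk libraries, fewer cells of a type and less RNA per cell cannot be told apart.

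MKPs remove phosphate from both the threonine and the tyrosine in the activation loop of MAP kinases, and so switch them off. Many are themselves induced by the kinase they act on, which makes a negative feedback loop. They are usually grouped as inducible nuclear enzymes (Dusp1, Dusp2, Dusp4, Dusp5), cytoplasmic enzymes selective for ERK (Dusp6, Dusp7, Dusp9) and enzymes selective for the stress kinases JNK and p38 (Dusp8, Dusp10, Dusp16). In muscle precursors, ERK signalling downstream of growth factors favours proliferation, and p38 activity is needed for differentiation.

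Promoter sequence was available for 8 of the 10 genes, as windows of 300 bases around the RefSeq start site (250 before, 50 after) in GRCm38.p6, all but Dusp4 and Dusp9. Windows were searched on both strands for the cAMP response element TGACGTCA, the AP-1 site TGANTCA, the ETS site CCGGAAG, the Egr site GCGNGGGCG, the CArG box and the kappaB site. The 3 windows below are shown because they hold the matches found least often in all 32851 windows, and the capitals mark the matches, none of which overlaps another. They are the Dusp1 window (chr17:26508423-26508722, minus strand) and the Dusp8 window (chr7:142095235-142095534, minus strand), each with cAMP response elements, and the Dusp5 window (chr19:53528895-53529194, plus strand), with CArG boxes.

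Dusp1: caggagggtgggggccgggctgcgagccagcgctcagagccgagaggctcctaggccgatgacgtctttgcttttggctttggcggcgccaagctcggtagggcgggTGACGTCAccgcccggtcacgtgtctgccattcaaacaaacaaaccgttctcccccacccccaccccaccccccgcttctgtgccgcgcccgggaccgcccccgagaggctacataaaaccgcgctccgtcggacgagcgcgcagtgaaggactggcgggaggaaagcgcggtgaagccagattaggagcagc

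Dusp8: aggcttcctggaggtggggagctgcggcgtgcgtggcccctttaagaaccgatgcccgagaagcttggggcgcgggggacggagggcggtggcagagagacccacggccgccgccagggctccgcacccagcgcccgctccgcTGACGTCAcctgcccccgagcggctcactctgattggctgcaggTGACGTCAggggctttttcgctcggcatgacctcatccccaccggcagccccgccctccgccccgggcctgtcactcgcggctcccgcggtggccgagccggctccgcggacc

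Dusp5: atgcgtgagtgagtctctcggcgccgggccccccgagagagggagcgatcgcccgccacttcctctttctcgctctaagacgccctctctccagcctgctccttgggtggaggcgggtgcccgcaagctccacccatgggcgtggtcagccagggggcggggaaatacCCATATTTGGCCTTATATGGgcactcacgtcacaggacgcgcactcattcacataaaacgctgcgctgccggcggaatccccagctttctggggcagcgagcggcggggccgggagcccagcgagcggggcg

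The Dusp1 window held 1 cAMP response element, starting 143 bases before the start site, and the Dusp8 window held 2, starting 107 and 63 bases before it. This motif was in 1.79% of all windows, and 0.04% held 2 or more copies. The CArG box is the binding motif of serum response factor. In the Dusp5 window, CCATATTTGG and CCTTATATGG lay end to end, starting 82 and 72 bases before the start site. A CArG box was in 1.63% of windows and 2 or more in 0.018%. The Egr site was found in the windows of Dusp2 and Dusp16, and in 5.55% of all windows. None of the 8 windows held the AP-1 letters (7.81% of all windows), the ETS letters (8.86%) or the kappaB motif (4.51%), and the Dusp6, Dusp7 and Dusp10 windows held none of the 6 motifs. The 8 windows were 57.3% to 78.7% G or C, against a median of 52.7% over all windows. The shares of all windows are therefore not matched for base content. These are matches of letters in 1 short window per gene, and binding was not measured.

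Levels below are CPM after TMM scaling of library sizes, and differences are log2 fold changes with a standard error (SE) from 1 edgeR model over all 6 libraries. A gene was called where the Benjamini-Hochberg adjusted p-value over all tested genes was under 0.05. From day 0 to day 4 with DMSO, Dusp2, Dusp4, Dusp5, Dusp7 and Dusp9 were called lower, by 2.08- to 4.65-fold. Dusp8 was 2.03-fold higher, Dusp1 was 1.39-fold higher and Dusp10 was 1.1-fold higher, all called. With 4-PBA in place of DMSO, Dusp4 was 1.49-fold lower, and Dusp6 and Dusp10 were lower by smaller amounts.

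**Figure D1:**
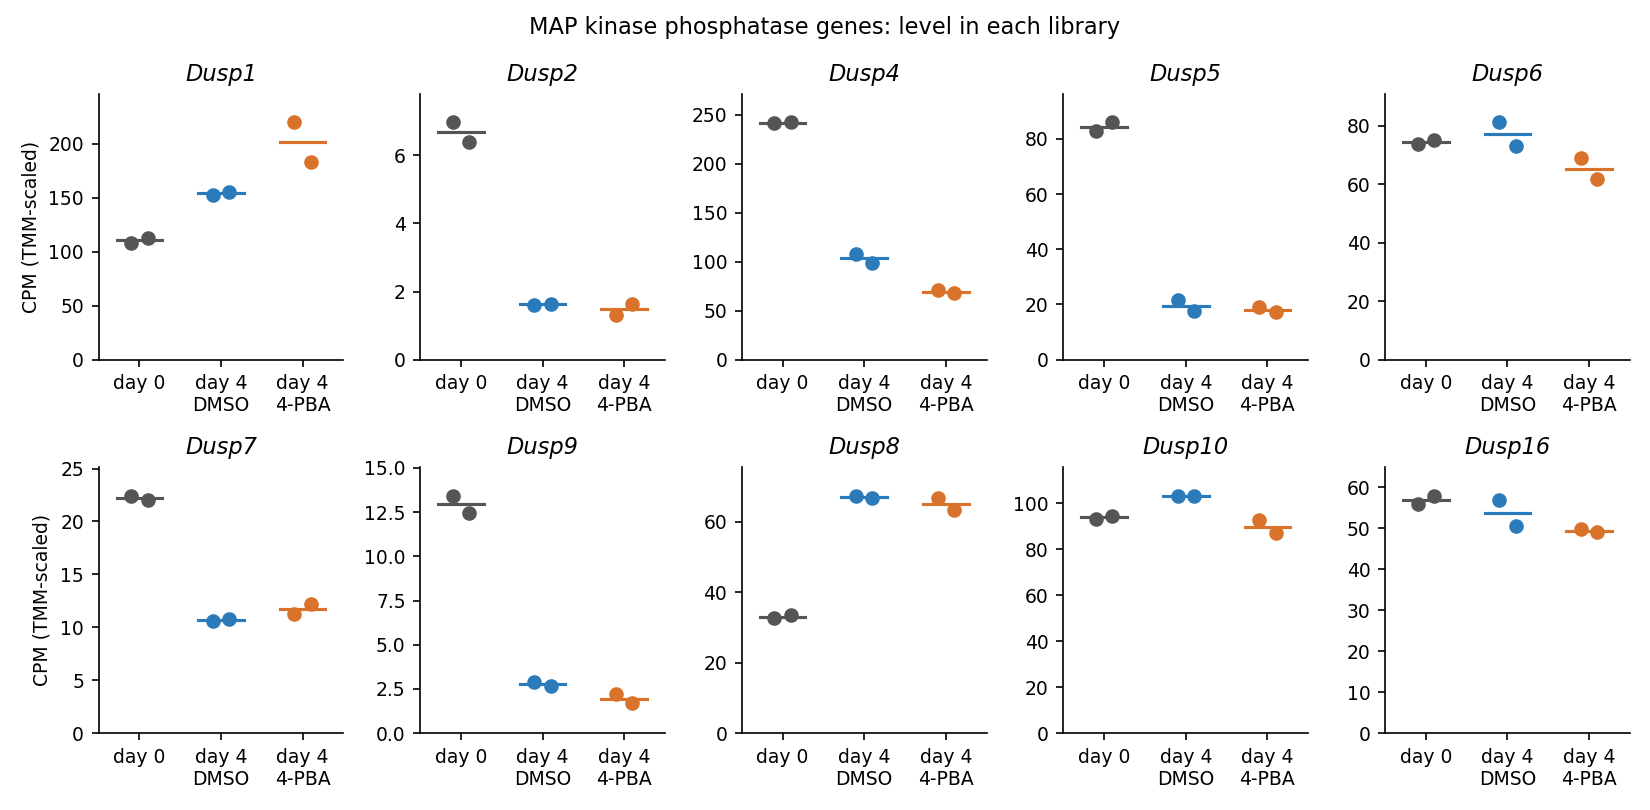
Expression of the 10 phosphatase genes in each library, in CPM after TMM scaling, with each vertical axis starting at 0. Points are libraries, bars are means of 2 libraries, and groups are day 0, day 4 DMSO and day 4 4-PBA. Dusp4 steps down across the 3 groups and Dusp1 steps up, while Dusp5 is near 20 CPM or below in all 4 day 4 libraries.

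Dusp4 (MKP-2), an inducible nuclear phosphatase, was the member with the largest called difference between 4-PBA and DMSO. Its level was 242 and 243 CPM at day 0, 108 and 99.1 CPM under DMSO, and 71.1 and 68.0 CPM under 4-PBA. Every 4-PBA library lay below every DMSO library, and every DMSO library below every day 0 library. The log2 fold change was -1.22 (SE 0.038) from day 0 to DMSO and -0.57 (SE 0.0393) from DMSO to 4-PBA. The second difference was large for this comparison, in which 855 genes were called (4.9% of those tested). Their median absolute log2 fold change was 0.216, and Dusp4 ranked 62 among them by size. Dusp4 was chosen with this comparison in view, and the alternative analyses reuse the same 6 libraries, so they add no separate support. It was called in 15 of 16 alternative analyses, the exception being a required change of at least 2-fold, and leaving out any 1 library gave log2 fold changes between -0.64 and -0.51. No gene of the GENCODE M21 annotation overlapped Dusp4 on the opposite strand.

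Dusp1 (MKP-1), the immediate-early member that acts on p38, JNK and ERK, had its levels in the opposite order. It stood at 108 and 113 CPM at day 0, 152 and 156 CPM under DMSO, and 220 and 183 CPM under 4-PBA. The 3 groups did not overlap, but the 4-PBA libraries were further apart than those of the other groups. From day 0 to DMSO the log2 fold change was 0.48 (SE 0.104) and was called, although not when either day 0 library or DMSO replicate 1 or 2 was left out. From DMSO to 4-PBA it was 0.39 (SE 0.102) and was not called. The last value ranged from 0.25 without 4-PBA replicate 1 to 0.51 without 4-PBA replicate 2, and was called in 5 of 16 alternatives, among them both of those. Other immediate-early genes had the same order of 4-PBA libraries, chosen here after their values were seen: Fos was at 24.4 and 15.0 CPM, and Egr1 at 347 and 238 CPM, in replicates 1 and 2. The part of that library difference in the Dusp1 value was not tested. Dusp1 overlaps Ergic1 on the opposite strand, and whether counting used strand is not given in the sources used here.

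Dusp5 and Dusp2 were called lower at day 4 than at day 0, and neither was called between the day 4 groups. Dusp5, a nuclear phosphatase specific for ERK that also anchors it in the nucleus, was at 82.7 and 86.2 CPM at day 0, 21.6 and 17.5 CPM under DMSO, and 19.0 and 17.3 CPM under 4-PBA. The log2 fold change from day 0 to DMSO was -2.11 (SE 0.076), a 4.33-fold lower level, and the day 4 groups overlapped. Dusp2 (PAC-1), best known from activated immune cells, was the least abundant nuclear member per kilobase. It was at 6.98 and 6.40 CPM at day 0, 1.62 and 1.64 CPM under DMSO, and 1.32 and 1.64 CPM under 4-PBA. Its log2 fold change from day 0 to DMSO was -2.03 (SE 0.169), resting on 102 and 122 counts in the DMSO libraries. From DMSO to 4-PBA the log2 fold changes were -0.10 (SE 0.0828) for Dusp5 and -0.14 (SE 0.193) for Dusp2. Both changed sign when a library was left out. Dusp5 ranged from -0.25 without DMSO replicate 2, where it was called, to 0.05 without DMSO replicate 1. Dusp2 ranged from -0.30 without 4-PBA replicate 2 to 0.01 without 4-PBA replicate 1, called in neither. Dusp5 overlaps AC137853.2 on the opposite strand.

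The cytoplasmic ERK phosphatases did not share a pattern. Dusp6 (MKP-3), the classical feedback inhibitor of growth factor signalling to ERK, was at 73.6 and 75.2 CPM at day 0, 81.2 and 73.1 CPM under DMSO, and 69.0 and 61.6 CPM under 4-PBA. Day 0 and DMSO overlapped, with a log2 fold change of 0.05 (SE 0.0535) that was not called. That difference ranged from -0.03 when DMSO replicate 1 was left out to 0.12 when DMSO replicate 2 was, and was called in the latter fit. The 4-PBA libraries were below the DMSO libraries by a log2 fold change of -0.24 (SE 0.0537), which was called but was not without 4-PBA replicate 2, where it was -0.16. Dusp7, the close cytoplasmic relative of Dusp6, was at 22.4 and 22.0 CPM at day 0, 10.6 and 10.8 CPM under DMSO, and 11.3 and 12.2 CPM under 4-PBA. Its log2 fold change was -1.05 (SE 0.079) from day 0 to DMSO, called, and 0.13 (SE 0.0825) from DMSO to 4-PBA, not called. Dusp9 (MKP-4), known for its role in placenta, was at 13.4 and 12.4 CPM at day 0, 2.88 and 2.68 CPM under DMSO, and 2.21 and 1.71 CPM under 4-PBA. Its log2 fold change from day 0 to DMSO was -2.22 (SE 0.131), within 1 SE of that of Dusp5. The 4-PBA libraries of Dusp9 were below the DMSO libraries by a log2 fold change of -0.51 (SE 0.157), which was not called and rested on 106 to 199 counts per library. The value ranged from -0.70 when 4-PBA replicate 1 was left out to -0.33 when 4-PBA replicate 2 was, and was called in the first of these fits and under both other filters on low counts.

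Among the phosphatases of the stress kinases, Dusp8 was called higher at day 4, and the differences of Dusp10 and Dusp16 were smaller. Dusp8 was at 32.6 and 33.4 CPM at day 0, 67.4 and 66.7 CPM under DMSO, and 66.6 and 63.4 CPM under 4-PBA. The log2 fold change was 1.02 (SE 0.0478) from day 0 to DMSO, a 2.03-fold higher level, and -0.04 (SE 0.0454) from DMSO to 4-PBA. Dusp8 overlaps Gm32786 on the opposite strand. Dusp10 (MKP-5), which acts on p38 and JNK, was at 93.4 and 94.6 CPM at day 0, 103.4 and 103.0 CPM under DMSO, and 92.8 and 87.0 CPM under 4-PBA. It rose with a log2 fold change of 0.14 (SE 0.0389) and was lower with 4-PBA than with DMSO by a log2 fold change of -0.20 (SE 0.0388), both called, and its 4-PBA libraries were not called against day 0. The second call was lost without 4-PBA replicate 2, at -0.15. Dusp16 (MKP-7), a JNK-selective enzyme, was at 55.9 and 58.0 CPM at day 0, 57.0 and 50.6 CPM under DMSO, and 49.8 and 49.1 CPM under 4-PBA. From day 0 to DMSO its log2 fold change was -0.08 (SE 0.0509), not called. That value was -0.17 without DMSO replicate 1, where it was called, as it was with library size alone, and -0.0012 without DMSO replicate 2. From DMSO to 4-PBA it was -0.12 (SE 0.0511), not called, and ranged from -0.20 without DMSO replicate 2, where it was called, to -0.03 without DMSO replicate 1. The 4-PBA libraries of Dusp16 were called lower than day 0, by a log2 fold change of -0.20 (SE 0.0514), in all alternatives except the required 2-fold change.

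Read against all genes, 8 of the 10 members were called from day 0 to DMSO, where 66.3% of all tested genes were called. Of the members, 3 were higher (33.8% of tested genes) and 5 lower (32.6%). The median log2 fold change of the 10 members was -0.57, and that of all tested genes was 0.02. Between 4-PBA and DMSO, 3 members were called, none higher (2.13% of tested genes) and all 3 lower (2.78%), where 4.9% of tested genes were called in either direction. The member median was -0.13 and that of all tested genes 0.00205. Without 4-PBA replicate 1 or DMSO replicate 2, 5 members were called in that comparison, of which Dusp1 was the only higher one, in the fit without 4-PBA replicate 1. Over all genes, 341 were called without 4-PBA replicate 1 and 295 without 4-PBA replicate 2, against 855 with all libraries. Between 4-PBA and day 0, 9 members were called (65.6% of tested genes), 2 higher (33.2%) and 7 lower (32.4%). Since these comparisons had a part in choosing the members, nothing is read from the counts, and comparisons that share the DMSO or day 0 libraries are not independent of each other.

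**Figure D2:**
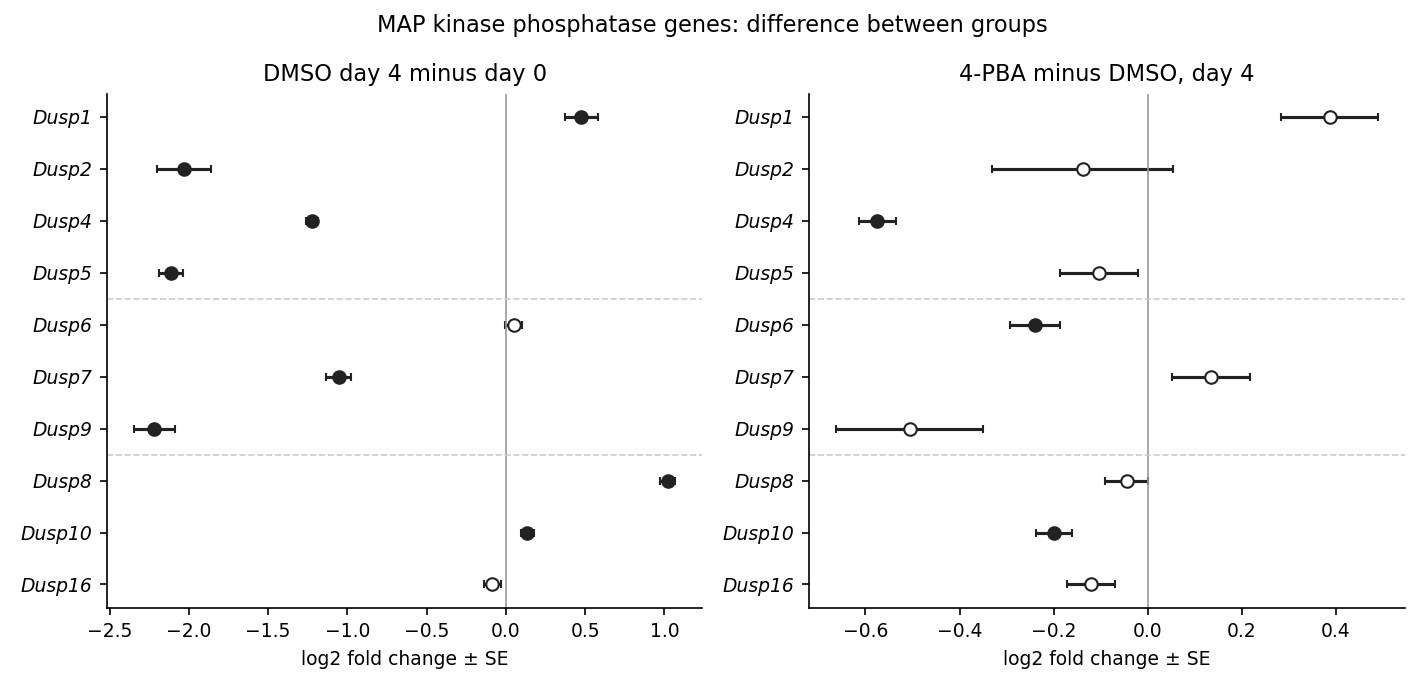
Log2 fold changes of the 10 phosphatase genes, day 4 DMSO minus day 0 on the left and 4-PBA minus DMSO at day 4 on the right, on axes of different range. Points are estimates from 6 libraries, bars are ± 1 SE, filled points were called, and dashed lines separate the nuclear, cytoplasmic and stress-kinase groups. Dusp4 is called lower on both sides, Dusp6 is called on the right alone, and Dusp10 is called higher on the left and lower on the right.

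Direct values of 4-PBA against day 0 show where the members ended. Dusp1 was 1.82-fold and Dusp8 1.97-fold above day 0. Dusp4 was 3.48-fold below day 0 under 4-PBA, against 2.34-fold with DMSO. Dusp9 was 6.6-fold and 4.65-fold below, Dusp5 4.65-fold and 4.33-fold, and Dusp2 4.5-fold and 4.09-fold, in the same order. Dusp7 was the exception among the genes that fell, at 1.89-fold below day 0 under 4-PBA against 2.08-fold with DMSO, a day 4 difference that was not called.

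Levels of different genes were compared only per kilobase of GENCODE M21 exons, as CPM per kb. The length used was that of all annotated exons of a gene merged, which can exceed that of the transcript expressed. The order, ratios and shares below depend on this length, and the SD does not include it. At day 0, Dusp4 was the most abundant member at 88.3 ± 0.269 CPM per kb (SD, n = 2). Dusp5 at 34.2 ± 0.977 and Dusp1 at 33.5 ± 0.987 CPM per kb overlapped, and Dusp10 at 30.9 ± 0.28 and Dusp6 at 23.8 ± 0.356 CPM per kb followed. The order was different at day 4. With DMSO, Dusp1 led at 46.6 ± 0.724 CPM per kb, ahead of Dusp4 at 37.8 ± 2.37, Dusp10 at 33.9 ± 0.0914 and Dusp6 at 24.6 ± 1.84 CPM per kb. With 4-PBA, Dusp1 led at 60.9 ± 7.99 CPM per kb, Dusp10 was next at 29.6 ± 1.36, and Dusp4 was behind it at 25.4 ± 0.797 CPM per kb. The libraries of these neighbours did not overlap within a group. The lowest levels were those of Dusp9 and Dusp2 in every group, and these overlapped with 4-PBA, at 0.719 ± 0.13 and 0.74 ± 0.114 CPM per kb.

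The change in order of Dusp4 and Dusp1 was visible in each library. The ratio of Dusp4 to Dusp1, per kilobase, was 2.69 and 2.59 at day 0, 0.858 and 0.768 under DMSO, and 0.39 and 0.449 under 4-PBA. Dusp4 thus exceeded Dusp1 in both day 0 libraries and in none of the 4 day 4 libraries. The 10 genes summed to 237.5 and 241.2 CPM per kb at day 0, 180.4 and 172.7 under DMSO, and 177.6 and 159.7 under 4-PBA, so the day 4 libraries were all lower. The inducible nuclear genes held 66.5% and 66.6% of the summed CPM per kb at day 0, 52.7% and 52.8% under DMSO, and 56.8% and 55.0% under 4-PBA. The stress-kinase genes held 18.8% and 18.8%, then 30.6% and 31.3%, then 28.5% and 30.0%. The cytoplasmic ERK genes held 14.6% to 16.7% in all 6 libraries.

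**Figure D3:**
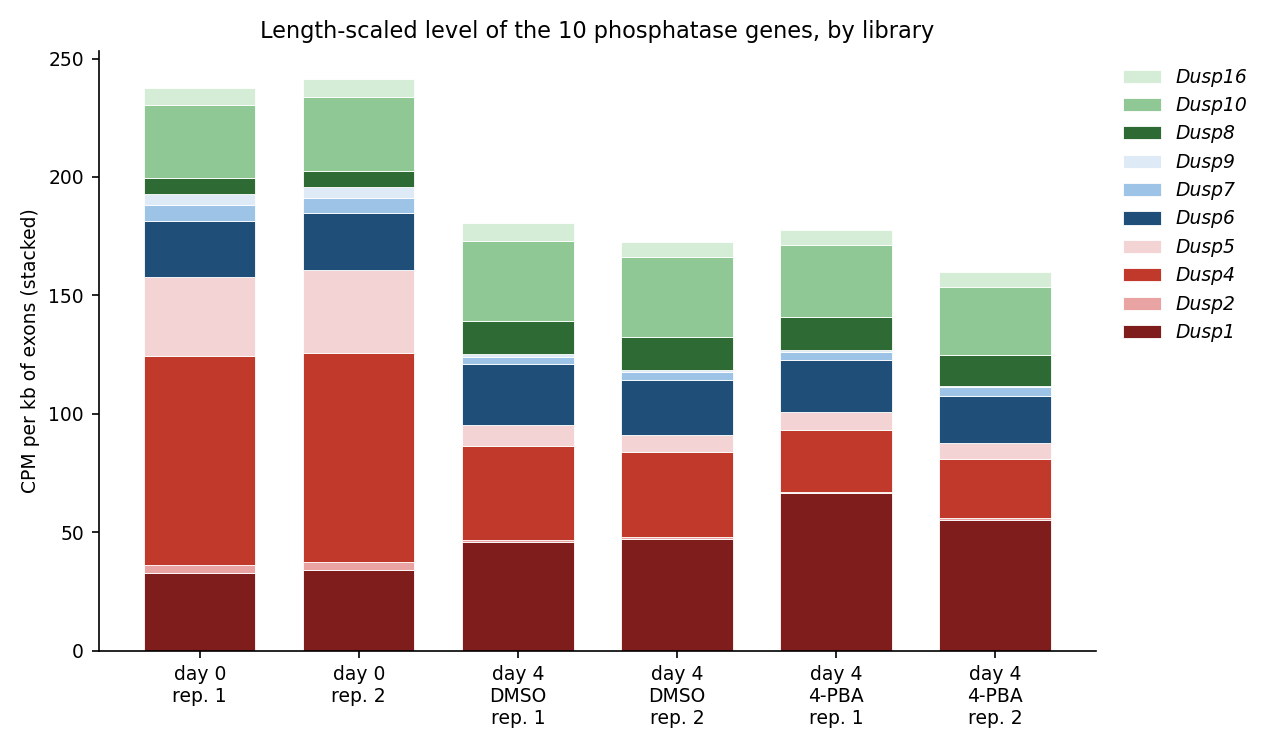
Stacked CPM per kb of GENCODE M21 exons of the 10 phosphatase genes in each of 6 libraries, from 0. Reds are the inducible nuclear genes, blues the cytoplasmic ERK genes and greens the stress-kinase genes. The Dusp4 band narrows from day 0 through DMSO to 4-PBA, and the Dusp1 band widens.

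The nearest profiles were sought among 10680 genes by Euclidean distance in log2 CPM over the 6 libraries after subtracting each gene's mean, for the 3 members with the largest change from day 0 to DMSO among those of at least 5 mean CPM, namely Dusp9, Dusp5 and Dusp4. Dusp4 was nearest to Il33 (distance 0.243), Kcnk2 (0.253) and Spp1 (0.31). Il33 averaged 102 CPM at day 0, 41.2 CPM with DMSO and 32.2 CPM with 4-PBA. Dusp5 was nearest to Osbp2 (0.166), Kcnn4 (0.195) and Lonrf3 (0.211). Dusp9 was nearest to Cyp11a1 (0.392), Ccnd1 (0.416) and Gm12602 (0.451). These distances describe 6 libraries of which the 3 groups are the main source of spread.

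The other dual-specificity phosphatases in the table, mostly small atypical enzymes without the kinase-interaction domain of MKPs, had 14 tested genes. From day 0 to DMSO, 7 were called higher and 1 lower, with a median log2 fold change of 0.20. That was 57.1% of the 14, against 66.3% of all tested genes. For the lists compared between 4-PBA and DMSO from here on, the share of all tested genes called was 4.9%. Like the members, these lists were chosen with earlier results of these data known, so nothing is read from their counts. Dusp27, a muscle-enriched member that lacks catalytic activity, was at 19.6 and 17.8 CPM at day 0 and at 89.6 and 87.2 CPM at day 4 with DMSO, a log2 fold change of 2.25 (SE 0.0527, adjusted p = 1.45e-28). Dusp28 (1.53, adjusted p = 4.32e-14) and Dusp3, which acts on ERK and JNK (0.70, adjusted p = 2.84e-19), also rose. With 4-PBA against DMSO, 3 of 14 were called (median -0.13), all lower: Dusp18 (-0.20, adjusted p = 0.0073), Dusp27 (-0.19, adjusted p = 0.0112) and Dusp11 (-0.12, adjusted p = 0.0251). Each of these small differences lost its call in at least 1 fit without a library: Dusp18 without 4-PBA replicate 2, Dusp27 without 4-PBA replicate 1, and Dusp11 without either 4-PBA library or DMSO replicate 2.

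The kinases that MKPs act on, and the kinases above them, were listed next. Of 18 tested MAP kinases and MAP2 kinases, 5 were called higher and 11 lower from day 0 to DMSO, with a median log2 fold change of -0.20; of all tested genes 33.8% were called higher and 32.6% lower. The ERK gene Mapk3 fell by 0.20 on the log2 scale (adjusted p = 2.64e-05), and the p38 alpha gene Mapk14 fell by 0.37 (adjusted p = 2.83e-10). The JNK genes Mapk8 and Mapk9 rose by 0.32 and 0.23 (adjusted p = 2.19e-06 and 1.74e-05), and the muscle p38 gene Mapk12 rose by 0.18 (adjusted p = 0.0027). Larger falls were those of Mapk4, an atypical MAP kinase (-1.51), Map2k6, an activator of p38 (-1.04), and Map2k3, another (-0.69). With 4-PBA against DMSO, 3 of 18 were called (median -0.02). Map2k3 was lower (-0.16, adjusted p = 0.00557), Mapk6 was lower (-0.12, adjusted p = 0.0198) and Mapk14 was higher (0.15, adjusted p = 0.0192). All 3 calls were lost without 4-PBA replicate 1 and without 4-PBA replicate 2, and those of Mapk6 and Mapk14 also without DMSO replicate 2.

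Higher in the cascade, 9 of 21 tested MAP3 kinases and scaffolds were called higher and 8 lower from day 0 to DMSO. That was 81%, against 66.3% of all tested genes. The largest were Gadd45a (log2 fold change 2.01, adjusted p = 1.09e-10) and Gadd45b (1.57, adjusted p = 3.76e-19), which bind and activate a MAP3 kinase of the p38 and JNK pathways. Their relative Gadd45g was at 59.1 and 60.5 CPM at day 0, 100.5 and 104.9 CPM under DMSO, and 137.0 and 141.3 CPM under 4-PBA. It was called higher with 4-PBA than with DMSO, by 0.44 on the log2 scale (SE 0.0375, adjusted p = 1.37e-09), and the 3 groups did not overlap. The other called gene of the 21 was Map3k1, a kinase upstream of JNK, at 0.49 (adjusted p = 0.0348), a call that was lost with the DESeq2 Wald test, with limma-voom, with the replicate block (adjusted p = 0.0545), with only the 4 libraries compared, and without day 0 replicate 1, DMSO replicate 2 or 4-PBA replicate 2. The median over the 21 was 0.01 from day 0 to DMSO and 0.03 from DMSO to 4-PBA. Of 19 RAS and RAF genes, 10 were called higher and 3 lower from day 0 to DMSO (68.4%, near the 66.3% of all tested genes). Their median was 0.15, and the largest differences were those of Rras (1.00), Gab1 (0.99) and Rras2 (-0.83). In the 4-PBA comparison with DMSO the only called gene of the 19 was Nf1, a negative regulator of RAS (-0.17, adjusted p = 0.00143), and that call was lost without 4-PBA replicate 2.

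Of 14 tested growth factor receptors, 8 were called higher and 4 lower from day 0 to DMSO (85.7%, against 66.3% of all tested genes). Among them were Erbb3 (3.17), Fgfr3 (2.40) and Ngfr (-6.91). The size of the Ngfr value is uncertain, as it rested on 4 and 11 counts in the DMSO libraries. None of the 14 was called between 4-PBA and DMSO by edgeR, by the DESeq2 Wald test or by limma-voom, and 5 had an unadjusted p-value under 0.05 in edgeR. Of 8 other phosphatases that act on MAP kinases, 3 were called higher and 2 lower from day 0 to DMSO (62.5%). The p53-induced phosphatase Ppm1d was lower (-0.51, adjusted p = 1.62e-06) in that comparison and higher with 4-PBA than with DMSO (0.36, adjusted p = 0.00681), but not called in the latter without 4-PBA replicate 2. Of 13 transcription factors known at MKP promoters, 12 were called from day 0 to DMSO (92.3%), 5 higher and 7 lower. Fos was higher (2.29, adjusted p = 0.00678), as was Egr1, at 119 and 117 CPM at day 0 and 286 and 274 CPM with DMSO (adjusted p = 0.0158), and both calls were lost when any day 0 or DMSO library was left out. Elk3, an ETS factor, was lower (-0.79, adjusted p = 8.62e-07). With 4-PBA against DMSO the called gene of the 13 was Elk4 (-0.14, adjusted p = 0.0166), and that call was lost without DMSO replicate 2 and without either 4-PBA replicate.

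Genes that ERK signalling is known to induce were listed beside the phosphatases. Of 19 tested feedback and output genes, 4 were called higher and 11 lower from day 0 to DMSO (78.9%, against 66.3% of all tested genes). The higher genes were Spry1, Spry2, Egr1 and Fos. Egr1 and Fos were also counted among the transcription factors above, and the limit given there on their calls holds here. Their median log2 fold change was -0.35. The members of this list did not move together. Spry1, a feedback inhibitor of receptor signalling, rose from 2.82 and 3.96 CPM to 30.0 and 29.8 CPM (log2 fold change 3.11, adjusted p = 1.91e-14). Fosl1, an AP-1 subunit, fell from 188 and 182 CPM to 28.5 and 23.2 CPM (-2.85, adjusted p = 5.67e-09), and Epha4 fell by 2.46 on the log2 scale (adjusted p = 1.68e-16).

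With 4-PBA against DMSO, 7 of the 19 were called, all lower, with a median of -0.19. Of all tested genes 4.9% were called, with a median of 0.00205. This list too was chosen with earlier results of these data known, so nothing is read from its count. Spry4, another Sprouty inhibitor, was at 14.1 and 14.0 CPM at day 0, 10.6 and 9.22 CPM under DMSO, and 5.86 and 5.88 CPM under 4-PBA. Its 4-PBA libraries lay below both other groups (-0.76 on the log2 scale against DMSO, SE 0.102, adjusted p = 8.02e-06). Spry2 was at 72.8 and 73.4 CPM at day 0, 87.0 and 85.4 CPM under DMSO, and 70.1 and 64.5 CPM under 4-PBA (-0.36, SE 0.043, adjusted p = 1.15e-06). Like Dusp6 and Dusp10 it was lower with 4-PBA than with DMSO, and against day 0 it was lower by a log2 fold change of -0.12 (adjusted p = 0.0161). Fosl1 was lower (-0.43, adjusted p = 0.0474), a call that was lost with DESeq2 size factors, with library size alone and without either 4-PBA replicate. The others called were Myc (-0.33), Ccnd1 (-0.29), Epha2 (-0.22) and Etv4 (-0.19), and lower Myc and Ccnd1 were known from earlier results when the list was made. The calls of Epha2 and Etv4 were lost without either 4-PBA replicate, and that of Etv4 also without DMSO replicate 1. Not called were Phlda1 (-0.40, adjusted p = 0.0939), Errfi1 (-0.51, adjusted p = 0.385) and Fos (0.74, adjusted p = 0.326), 3 genes whose 4-PBA libraries were far apart, at 220 and 186 CPM for Phlda1 and 243 and 173 CPM for Errfi1. Without 4-PBA replicate 2, 8 genes of the list were called, 2 of them higher.

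**Figure D4:**
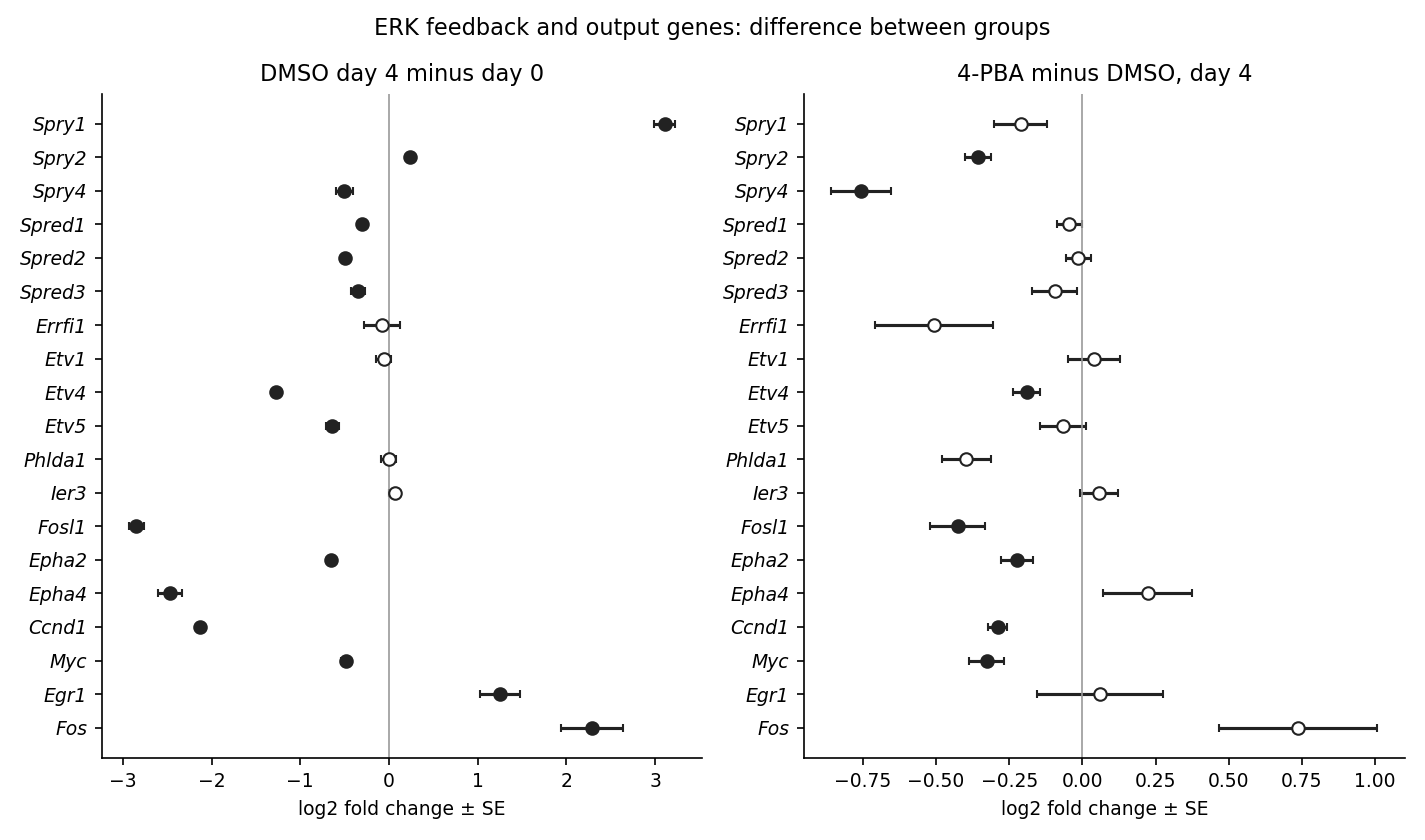
Log2 fold changes of 19 ERK feedback and output genes, day 4 DMSO minus day 0 on the left and 4-PBA minus DMSO at day 4 on the right, on axes of different range. Points are estimates from 6 libraries, bars are ± 1 SE and filled points were called. On the right all 7 filled points lie below 0, with Spry4 furthest, while Fos and Epha4 lie above 0 and are open.

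Proliferation markers differed between the same groups. The summed level of Mki67, Top2a, Ccnb1, Cdk1, Pcna and Mcm7 was 1777 and 1809 CPM at day 0, 575.2 and 499.9 CPM under DMSO, and 618.3 and 629.4 CPM under 4-PBA. All 6 were called lower from day 0 to DMSO, as were Dusp2, Dusp4, Dusp5, Dusp7 and Dusp9. With 4-PBA, Pcna (0.18, adjusted p = 0.00117) and Mcm7 (0.28, adjusted p = 1.92e-05) were called higher than with DMSO, while Dusp4, Dusp6 and Dusp10 were called lower. Of the 7 myogenic markers, 2 were called between 4-PBA and DMSO (28.6%, against 4.9% of all tested genes). Both were lower with 4-PBA: Des (-0.11, adjusted p = 0.00881) and Mymk (-0.17, adjusted p = 0.0134). The part of cell cycle or myogenic differences in the phosphatase levels was not tested.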

How the data were processed

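The authors deposited 1 table of raw counts per gene symbol for the 6 RNA sequencing libraries, without normalisation; the labels' protocols give DNase-treated total RNA and directional libraries. The submitters' processing notes name GRCm39; the aligner, counting tool, annotation and use of strand are not given in the sources used here. No count column belonged to another series.

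The members and gene lists were chosen with earlier results of these data known. Counts were filtered with filterByExpr, scaled with TMM and fitted with 1 mean per group over 6 libraries in edgeR 4.0.16 (R 4.3.3), with robust quasi-likelihood F tests and Benjamini-Hochberg adjustment over 17433 genes. The SE is the size of the log2 fold change divided by the square root of F. The design left 3 residual degrees of freedom. With 2 libraries against 2, relabelling cannot give a p-value under 0.05, so tests rest on a spread shared across genes; the common coefficient of variation was 3.74%. Averaged over genes, the spread between replicates exceeded counting error. Its chi-square divided by its degrees of freedom was 3.77 (day 0), 6.64 (DMSO) and 5.34 (4-PBA). Genes with many counts weigh most in this average, so it need not hold for genes with few, such as Dusp2 and Dusp9 at day 4.

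Named from each list were up to 3 called genes per comparison with the largest change, no overlap of libraries and 5 CPM or more in the higher group, the MAP kinase genes Mapk3, Mapk8, Mapk9, Mapk12 and Mapk14, and the markers. Map3k1, Myc, Ccnd1, Epha2, Etv4, Phlda1 and Errfi1 were named after their values were seen. Values of single genes that the rules cover and the text does not name are not reported here. Exon lengths and overlaps came from GENCODE M21 (GRCm38) by symbol, and promoters from RefSeq. The edgeR step was tested on simulated data. Alternatives were DESeq2 1.42.0 size factors and Wald test, limma-voom (limma 3.58.1), library size only, 2 other filters, a replicate block, only the 4 libraries compared, stricter thresholds, and leaving out each library. Figures used Python 3.11.15 and matplotlib 3.10.9.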

Additional observations from a re-analysis of the deposited data

How the results depend on the processing

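Requiring at least a 2-fold change left 3825 genes called between DMSO and day 0, 12 between 4-PBA and DMSO, and 3699 between 4-PBA and day 0, and left 0 and 4 phosphatase genes called in the last 2 comparisons. Between 4-PBA and DMSO, 424 genes were called at an adjusted p-value under 0.01. With no filter beyond 1 count, 5 phosphatase genes, 1 of them higher, and 1095 of all genes were called there. Leaving out 1 library at a time gave 295 (without 4-PBA replicate 2) to 1194 (without DMSO replicate 1) called genes and 2 to 5 called phosphatase genes in that comparison. Fits that leave 1 library in a group assume that it varies like the other groups. Of the MAP kinase genes, Mapk8, which was not called, changed sign between 4-PBA and DMSO when libraries were left out in turn, from -0.0205 without 4-PBA replicate 2 to 0.109 without 4-PBA replicate 1, and so did Dusp2 and Dusp5. The cause was not tested.

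Same-numbered libraries did not deviate together over all tested genes (correlations -0.0279, -0.00306 and -0.0116). Counting noise in genes with few counts pulls such correlations down, so they cannot settle whether the replicate numbers pair the libraries. With the replicate block, 11403, 768 and 11309 genes and 8, 3 and 9 phosphatase genes were called in the 3 comparisons.

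With 2 libraries a group, the calls of Dusp6 and Dusp10 between 4-PBA and DMSO each depended on 4-PBA replicate 2, and Dusp2 and Dusp9 had few counts at day 4.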
